A study of Oryctolagus cuniculus with 6 samples.

Results

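The Wnt genes described here are the 49 of 28788 genes in the files whose symbol names a Wnt ligand, a receptor or co-receptor for Wnt, a secreted regulator, or a feedback or effector gene of the pathway. They were picked out by symbol, with no threshold on a measured value. They comprise 18 Wnt ligands, 4 R-spondins, 9 Frizzled receptors, 4 co-receptors, 10 secreted antagonists and 4 feedback or effector genes. Retinas of adult rabbits were compared, 3 labelled normal and 3 labelled PVR (proliferative vitreoretinopathy, a scarring disease of the retina). In the PVR animals the sclera was punctured, some vitreous was removed, and platelet-rich plasma was injected into the vitreous cavity. The strain, the exact age, the time after injection and any sham procedure in the normal animals are not given in the sources used here, nor is it stated whether each sample is a separate animal. P-values therefore measure only the spread between these samples.

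Polyadenylated RNA was sequenced to between 31904593 and 43035080 counted reads per sample. Rod genes, the markers of the main retinal cell, summed to between 30129 and 47724 CPM (counts scaled to the total of a library) in the 6 samples, so the tissue label was borne out. The rod sum was 39080 to 47724 CPM in normal retina and 30129 to 40279 CPM in PVR. All 8 rod markers found had a negative log2 fold change, and edgeR called none of them. Normal replicate 2 stood apart in lens genes, where 11 markers summed to 31429 CPM against 18.1 and 15.4 CPM in normal replicates 1 and 3 and 287 to 319 CPM in PVR. Normal replicate 3 was highest in 9 of 10 oligodendrocyte markers, with a sum of 1227 CPM against 246 and 574 CPM in the other normal samples and 144 to 159 CPM in PVR. All 6 macrophage and microglia markers found in the files were higher in each PVR sample than in each normal sample, with sums of 36.9 to 60.9 CPM in PVR and 15.1 to 28.7 CPM in normal retina. Over all genes tested, 13.4% were higher in PVR without overlap of the groups. None of the 6 markers was called by edgeR (lowest adjusted p = 0.0735 from edgeR). By edgeR, 2 of 11 endothelial markers (VWF and CDH5) and 1 of 9 pericyte and smooth muscle markers (RGS5) were called lower in PVR. The log2 fold change was negative for 8 and positive for 3 endothelial markers (median -1.29), and negative for 6 and positive for 3 pericyte markers. After TMM scaling 6 of the 11 endothelial markers were lower in PVR without overlap and 1 was higher, against 14.6% and 13.4% of all genes tested. The endothelial sum, in contrast, was 714 to 746 CPM in PVR against 608 to 644 CPM in normal retina. Of 10 oligodendrocyte markers 3 were called lower (MAG, MOBP and ERMN), and all 10 had a negative log2 fold change (median -2.26). After TMM scaling 9 of the 10 were lower in PVR without overlap, against 14.6% of all genes tested. Of 8 Mueller glia markers 2 were called lower (RLBP1 and GLUL) and 1 higher (CLU). LRAT was called lower among 7 tested pigment epithelium markers, of which 5 had a negative log2 fold change and 2 a positive one. Of these 7, 3 were lower in PVR without overlap and 1 was higher, against 14.6% and 13.4% of all genes tested. The pigment epithelium markers summed to 90.3 to 124 CPM in PVR and 150 to 323 CPM in normal retina, highest in normal replicate 2. Fibroblast markers summed to 111 to 324 CPM in PVR and 81.4 to 108 CPM in normal retina. Only 1 of the 8 fibroblast markers was higher in each PVR sample than in each normal sample. Their log2 fold changes were positive for 6 and negative for 2, and edgeR called none. The part of these differences in the values below was not tested, and in a whole tissue a change in the number of cells of a type and a change in RNA per cell cannot be told apart.

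Wnt proteins are secreted lipid-bearing signals that bind Frizzled receptors. Together with LRP5 or LRP6 a Frizzled stops the breakdown of beta-catenin, which then enters the nucleus and acts with TCF and LEF factors, whereas the ROR receptors carry signals that do not need beta-catenin. Secreted antagonists hold back Wnts or the co-receptors, and R-spondins raise the amount of Frizzled at the cell surface by removing the ligases RNF43 and ZNRF3. In the eye the pathway is known for patterning the optic cup and its margin, and for the growth of retinal vessels through FZD4.

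The question was which Wnt genes differed between PVR and normal retina. FZD7 was upregulated in PVR, and no Wnt gene was called downregulated. Of the 49 genes, 38 had enough counts to be tested, and 1 of them passed an adjusted p of 0.05 in the quasi-likelihood test of edgeR (Benjamini-Hochberg adjusted). This is 2.63% of the tested Wnt genes, and over all 18697 genes tested the percentage called was 1.7, with 1.09 higher and 0.615 lower. With a log2 fold change beyond 1 as well, the percentage was 1.01, and FZD7 was again the 1 Wnt gene. At an unadjusted p of 0.05, 9 of the 38 were past the threshold (23.7%), against 21.2% of all genes tested. The groups did not overlap for 8 of the 38 (21.1%), against 28% of all genes tested. The median log2 fold change of the 38 was 0.02, and that of all genes tested was -0.01. The share called and the median thus stood near those of all genes. The filter on low counts can be passed through the group in which a gene is high, so these shares do not describe all 49 genes.

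**Figure D1:**
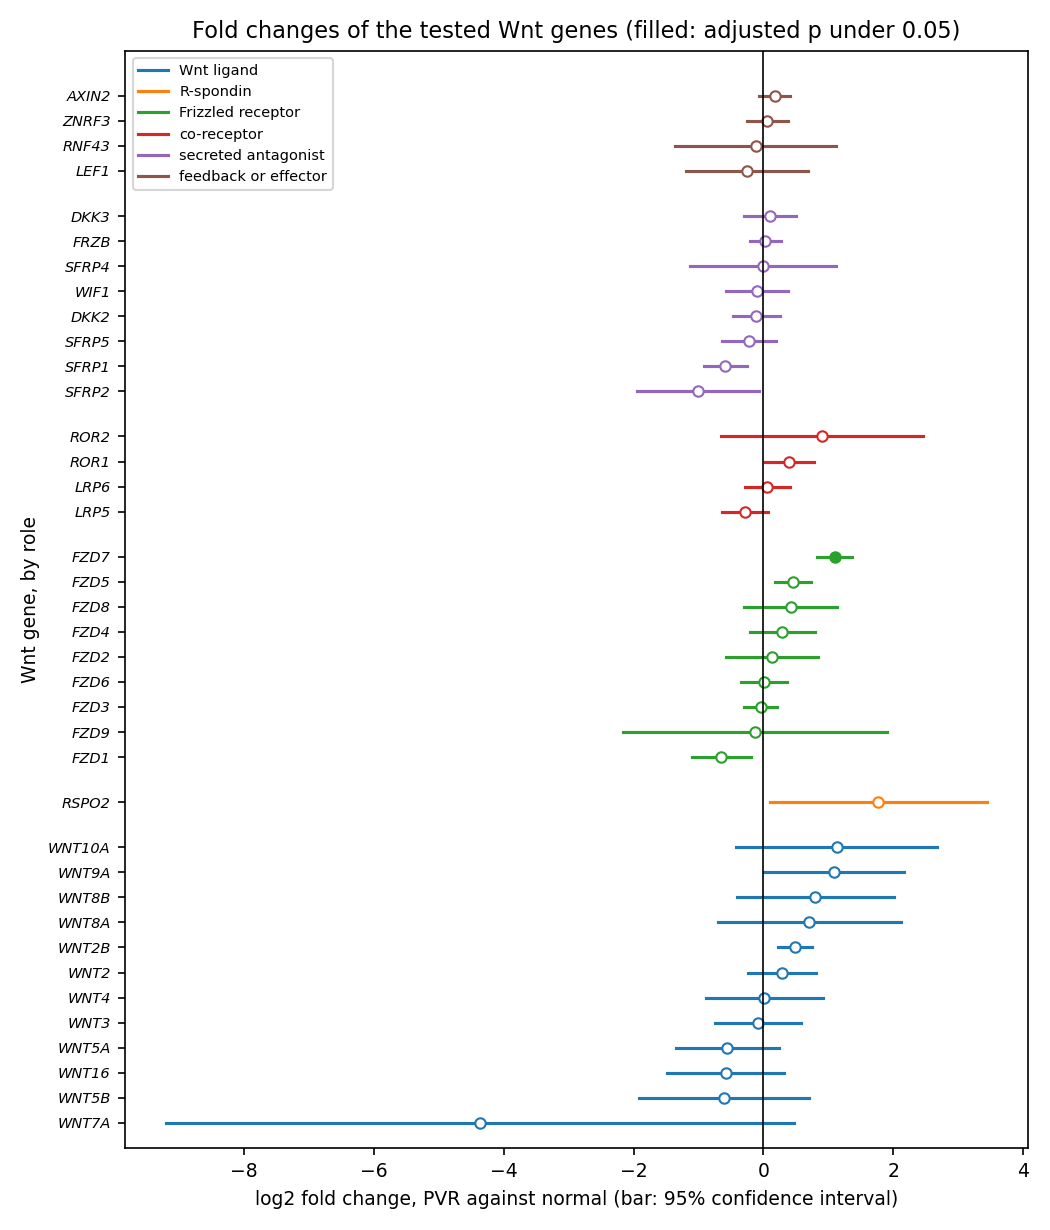
Log2 fold change of PVR against normal (x axis) for the 38 tested Wnt genes (y axis), grouped and coloured by role, with 95% confidence intervals from edgeR and filled points for an adjusted p under 0.05. FZD7 is the filled point, at 1.10, and WNT7A has the widest interval.

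FZD7 is a Frizzled receptor of many stem and progenitor cells. Its FPKM (fragments counted per gene, divided by gene length and by the total of the library) was 2.96, 2.79 and 3.27 in normal retina against 6.33, 6.49 and 7.45 in PVR retina. Values by sample are given in the order of the replicate numbers throughout. All PVR values lay close together and above all normal values. The counts behind them were 691 to 796 in normal retina and 1224 to 1944 in PVR. The ratio of the mean FPKM was 2.24. On the log2 scale the difference was 1.10 (standard error 0.12, 95% confidence interval 0.83 to 1.37, adjusted p = 0.0106 from edgeR), which is past the study's fold threshold of 1 as well. The lower bound of this interval is a 1.78-fold difference and the upper bound a 2.58-fold difference. The macrophage, fibroblast and endothelial sums given above were also higher in each PVR sample than in each normal sample. However, only 1 of 8 fibroblast markers was, and 8 of 11 endothelial markers had a negative log2 fold change. The part of these cells in the level of FZD7 was not tested. Ranked by p, FZD7 stood at position 34 of 18697 genes. It was past the threshold in 14 of 15 alternative tests, and in the test without PVR replicate 1 its log2 fold change was 1.14 with an adjusted p of 0.082 from edgeR. Without the normal replicates that stood apart, the adjusted p from edgeR was 0.0396 (replicate 2 left out) and 0.00978 (replicate 3 left out).

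FZD1 and FZD5 also had groups that did not overlap, in opposite directions, but neither passed the edgeR test. FZD1, which is related to FZD7 in sequence, had an FPKM of 6.17, 5.05 and 6.33 in normal retina against 4.21, 3.04 and 4.48 in PVR retina. Its log2 fold change was -0.65 (standard error 0.19, adjusted p = 0.125 from edgeR). FZD5, a Frizzled of the developing eye, had an FPKM of 9.82, 9.79 and 10.4 in normal retina against 16.6, 12.98 and 13.4 in PVR retina. The normal values were within a narrow band, and PVR replicate 1 was the highest. Its log2 fold change was 0.45 (standard error 0.12, adjusted p = 0.103 from edgeR). With DESeq2 the adjusted p was 0.0285 for FZD1 and 0.0245 for FZD5, and DESeq2 called 8.75% of all genes to which it gave an adjusted p and 5 of 40 Wnt genes (12.5%). FZD1 and FZD5 were past the threshold in none of the other 14 alternative tests. How reads that match more than 1 Frizzled were counted is not given in the sources used here, so the counts of the related FZD1, FZD2 and FZD7 are uncertain to that extent.

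**Figure D2:**
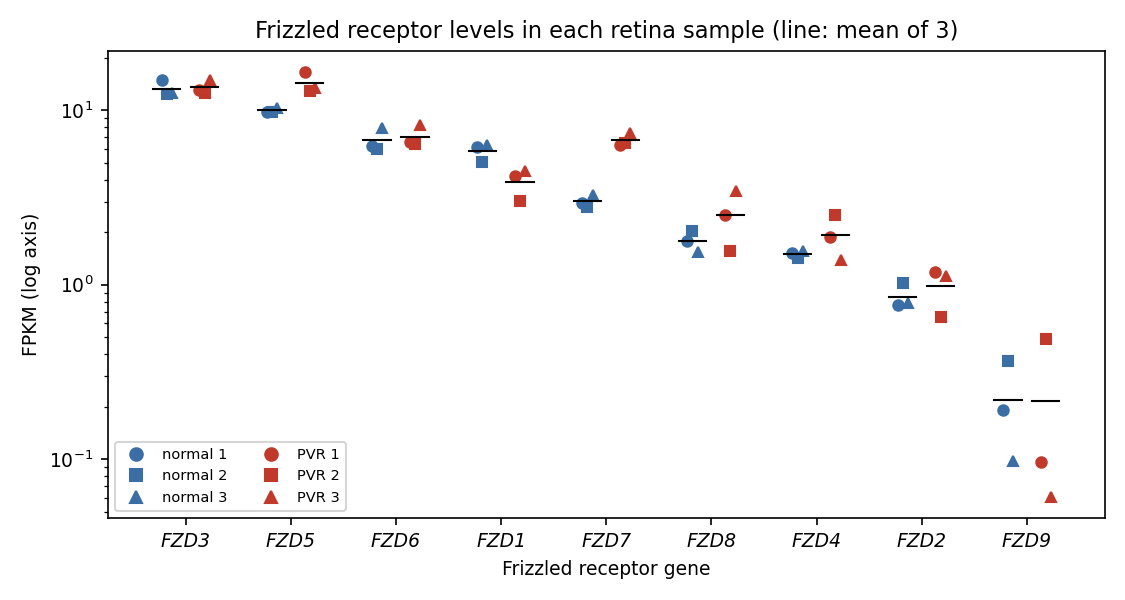
FPKM (y axis, log scale) of the 9 Frizzled genes (x axis) in each of the 3 normal (blue) and 3 PVR (red) samples, with a line at each mean. FZD7 moves from a mean of 3.01 to 6.75 and FZD1 from 5.85 to 3.91, while FZD3 and FZD6 keep overlapping values.

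In normal retina the mean FPKM was 13.3 for FZD3, 9.99 for FZD5, 6.74 for FZD6, 5.85 for FZD1 and 3.01 for FZD7. FZD6 and FZD1 overlapped between samples, whereas the other neighbours in that order did not. FZD8 and FZD4 followed, with 1.54 to 2.04 and 1.42 to 1.56 in single samples, and overlapped with each other, and FZD2 and FZD9 were lowest at 0.855 and 0.218. In PVR the mean was 14.3 for FZD5, 13.5 for FZD3, 7.08 for FZD6, 6.75 for FZD7 and 3.91 for FZD1. The ranges of FZD5 and FZD3 overlapped there, as did those of FZD6 and FZD7 and those of FZD1 and FZD8. On the FPKM scale FZD7 stood above FZD1 in every PVR sample and below it in every normal sample. This order depends on the annotated lengths, 6065 bases for FZD7 and 2584 bases for FZD1. In raw counts FZD7 stood above FZD1 in every sample of both groups, with 691 to 796 against 533 to 656 in normal retina. FZD7 made up 6.68%, 6.82% and 7.35% of the summed Frizzled FPKM in normal retina against 12.0%, 13.9% and 13.7% in PVR. FZD1 made up 13.9%, 12.3% and 14.2% in normal retina against 8.01%, 6.51% and 8.21% in PVR. The summed FPKM itself was 40.9 to 44.6 in normal retina and 46.6 to 54.5 in PVR. These shares describe transcripts per length, so their size depends on the annotated lengths, and they were not tested.

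**Figure D3:**
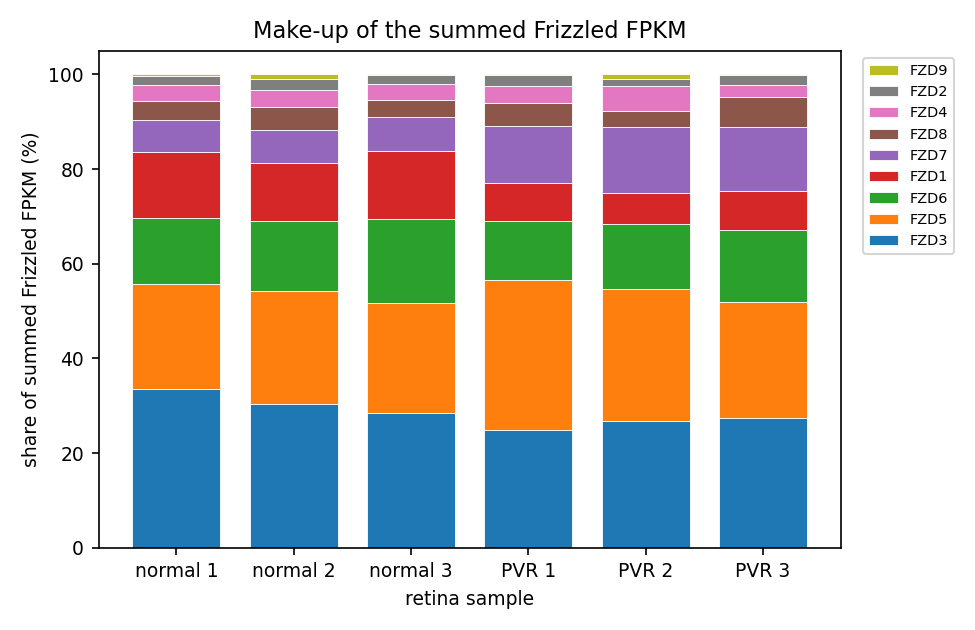
Share of each Frizzled gene (stacked bars, percent, y axis) in the summed Frizzled FPKM of each of the 6 samples (x axis). The FZD7 segment is 6.68% to 7.35% in the normal samples and 12.0% to 13.9% in the PVR samples, and the FZD1 segment is smaller in each PVR sample than in each normal sample.

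The remaining Frizzled genes did not pass the test. FZD3, a Frizzled of axon guidance and the most abundant in normal retina, had a log2 fold change of -0.05 with a 95% confidence interval of -0.30 to 0.20, and FZD6 had 0.01 with -0.35 to 0.36. The interval of FZD6 corresponds to a fold of 0.785 to 1.28, so differences within that range are not excluded. FZD4, the receptor for Norrin in retinal vessels, had an FPKM of 1.53, 1.42 and 1.56 in normal retina against 1.88, 2.51 and 1.39 in PVR, so PVR replicate 3 lay below all normal samples. FZD8 and FZD2 varied more between PVR samples than between normal samples, with an FPKM of 1.57 to 3.45 for FZD8 and 0.650 to 1.18 for FZD2 in PVR. FZD9 was close to the limit of counting, with 6 to 36 counts over all samples.

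None of the 4 co-receptor genes passed the edgeR test on all samples, where 1 of the 4 (ROR1) had an unadjusted p under 0.05. DESeq2 called none of them either. LRP6, a co-receptor of the beta-catenin branch, was the most abundant, with a mean FPKM of 19.0 ± 4.36 (SD, n = 3) in normal retina and 20.7 ± 1.92 (SD, n = 3) in PVR. By sample its FPKM was 16.7, 16.2 and 24.0 in normal retina against 20.3, 22.8 and 19.0 in PVR. Normal replicate 3 thus lay above all PVR samples and the other normal samples below them. The log2 fold change of LRP6 was 0.06 over all samples and 0.25 without normal replicate 3. LRP5, the other such co-receptor, had a mean FPKM of 3.28 ± 0.356 (SD, n = 3) in normal retina and 2.82 ± 0.338 (SD, n = 3) in PVR. edgeR gave a log2 fold change of -0.28 with a 95% confidence interval of -0.64 to 0.07. ROR1, a receptor tyrosine kinase that binds WNT5A, had an FPKM of 1.41, 1.48 and 1.75 in normal retina against 2.31, 1.79 and 2.30 in PVR. PVR replicate 2 stood just above the highest normal sample on the FPKM scale, and the groups overlapped after TMM scaling. The log2 fold change of ROR1 was 0.40 (standard error 0.16, adjusted p = 0.22 from edgeR).

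ROR2, the other ROR receptor, depended on normal replicate 3. Its FPKM was 0.224, 0.169 and 1.03 in normal retina against 0.974, 0.596 and 1.17 in PVR retina. Normal replicate 3 thus lay among the PVR samples, while the other normal samples lay below all of them. The counts were 43, 34 and 204 in normal retina and 153, 95 and 248 in PVR. Over all samples the log2 fold change was 0.89 (adjusted p = 0.462 from edgeR). Without normal replicate 3 it was 2.14 (adjusted p = 0.0455 from edgeR), and without normal replicate 2 it was 0.50. Normal replicate 3 also had the highest oligodendrocyte sum, and its pericyte and smooth muscle markers summed to 63.4 CPM against 31.5 and 39.3 CPM in the other normal samples and 26.5 to 47.5 CPM in PVR. The part of these cells in the level of ROR2 was not tested.

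Of the 18 Wnt ligands, 12 were tested and none passed the edgeR test, where WNT2B and WNT9A had an unadjusted p under 0.05. DESeq2 called WNT2B alone. WNT2B, a ligand of the margin of the optic cup, had an FPKM of 2.50, 2.66 and 2.82 in normal retina against 3.77, 3.69 and 4.25 in PVR. The PVR samples all exceeded the normal samples, with counts of 830 to 961 in normal retina and 1016 to 1559 in PVR. The difference on the log2 scale was 0.49 (standard error 0.11, adjusted p = 0.0781 from edgeR and 0.00888 from DESeq2). It stayed between 0.40 and 0.54 over the 15 alternative tests, of which only DESeq2 brought it past the threshold. By level WNT2B and WNT5A led the ligands in PVR, with a mean FPKM of 3.90 and 3.12. WNT5A, the main ligand of the ROR receptors, had an FPKM of 3.42, 6.56 and 3.04 in normal retina against 3.47, 2.77 and 3.12 in PVR. The value of normal replicate 2 was the highest, and without that sample the log2 fold change moved from -0.56 to -0.10. The FPKM of WNT5A rests on an annotated length of 1139 bases and that of WNT8B on 16660 bases, so the order of levels depends on the annotation.

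WNT2, a relative of WNT2B, had a mean FPKM of 1.58 ± 0.292 (SD, n = 3) in normal retina and 2.02 ± 0.235 (SD, n = 3) in PVR. WNT16 had 1.09 ± 0.331 (SD, n = 3) and 0.754 ± 0.338 (SD, n = 3), and both genes overlapped between the groups. WNT3 and WNT4 had a mean FPKM of 0.437 to 0.580 in the groups, and their log2 fold changes were -0.09 and 0.01. WNT4 had 48, 48 and 107 counts in normal retina against 57, 52 and 84 in PVR. Without normal replicate 3 its log2 fold change was 0.49. The scarce WNT9A and WNT10A had groups that did not overlap, with 9 to 22 and 2 to 10 counts in normal retina and 27 to 49 and 11 to 16 counts in PVR. Their log2 fold changes were 1.08 and 1.13, with adjusted p of 0.236 and 0.364 from edgeR. WNT8A and WNT8B had between 8 and 50 counts in the samples. The 6 ligands that were not tested were WNT1, WNT3A, WNT6, WNT9B, WNT10B and WNT11, with at most 14 counts in any sample, and WNT1 had no count in any sample. A count of 0 allows up to 3 counts, which is 0.0697 to 0.094 CPM in these libraries, and this limit covers counting error only.

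WNT7A and RSPO1 were high in normal replicate 2 alone. WNT7A had 5, 1587 and 0 counts in normal retina against 24, 21 and 27 in PVR, and RSPO1 had 3, 362 and 1 counts in normal retina against 6, 3 and 13 in PVR. In normal replicate 2 WNT7A was thus the most abundant ligand, with 47.8% of the summed ligand FPKM, against 0.385% and 0% in the other normal samples and 1.51% to 1.92% in PVR. The log2 fold change of WNT7A was -4.37 over all samples (adjusted p = 0.273 from edgeR) and 3.29 without normal replicate 2 (adjusted p = 0.24 from edgeR), so its direction was set by that sample. RSPO1 did not pass the filter on low counts and was not tested. The lens markers shared this pattern. The PVR mean of WNT7A was 1.74% of the level in normal replicate 2 and that of RSPO1 was 2.19%, and for the lens list it was 0.968%. The mean of normal replicates 1 and 3 was 0.165% for WNT7A, 0.575% for RSPO1 and 0.0532% for the lens list. WNT5B, a further ligand, had 95 counts in normal replicate 2 and 25 and 31 in the other normal samples, and 28 to 33 in PVR. The part of lens RNA in these values was not tested.

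**Figure D4:**
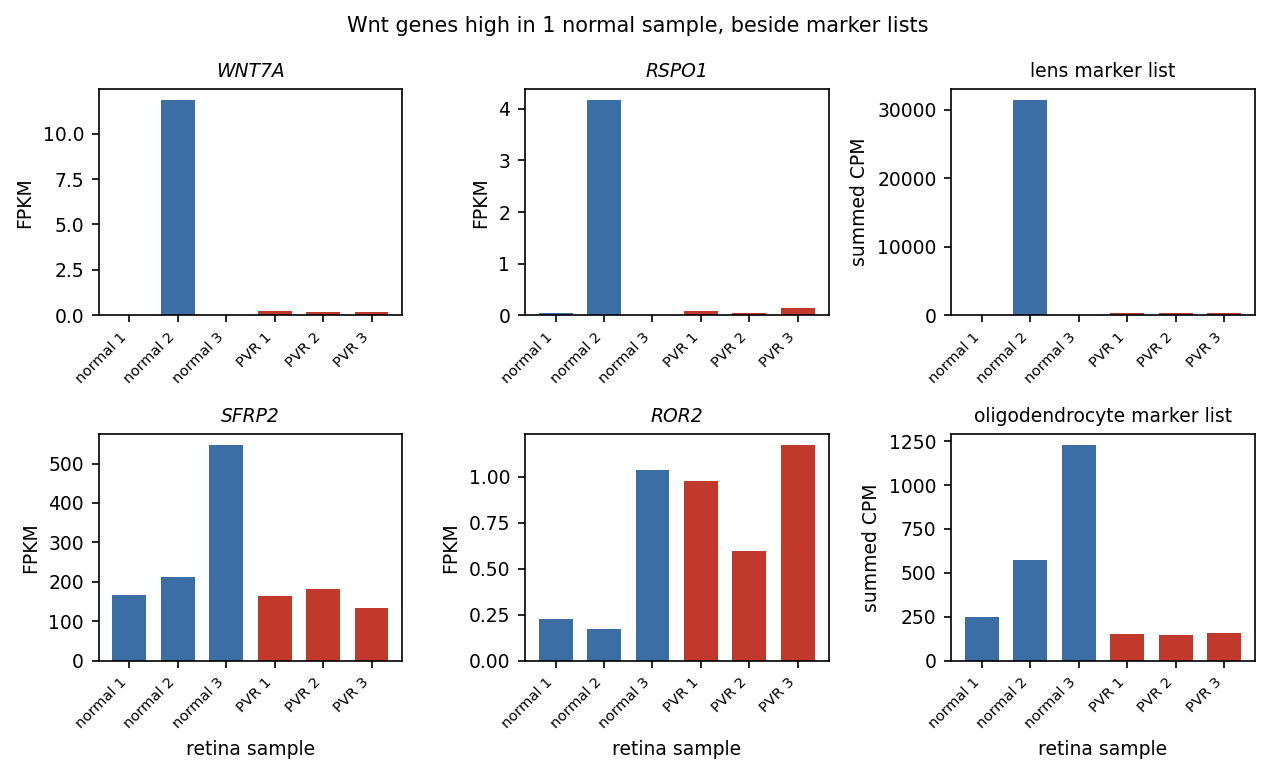
FPKM of WNT7A, RSPO1, SFRP2 and ROR2 and summed CPM of the lens and oligodendrocyte marker lists (y axes, linear from 0) in each normal (blue) and PVR (red) sample (x axes). WNT7A, RSPO1 and the lens list are high in normal replicate 2, and SFRP2 and the oligodendrocyte list are highest in normal replicate 3, while ROR2 in normal replicate 3 is level with PVR.

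The other R-spondins were scarce. RSPO2 had 2, 12 and 10 counts in normal retina against 28, 11 and 40 in PVR. After scaling for depth the groups did not overlap, and the log2 fold change was 1.77 (standard error 0.72, adjusted p = 0.217 from edgeR). RSPO3 and RSPO4 had at most 8 counts in any sample and were not tested.

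The secreted antagonists had the highest summed level of the Wnt genes, and none of the 8 tested passed the edgeR test, where SFRP1 and SFRP2 had an unadjusted p under 0.05. DESeq2 called SFRP1 alone. The summed FPKM of the 10 antagonists was 470, 531 and 852 in normal retina against 496, 491 and 472 in PVR, whereas that of the Frizzled receptors was at most 54.5. The sums apart from normal replicate 3 were thus close to each other in both groups. SFRP1, which binds Wnts through a Frizzled-like domain, had an FPKM of 7.40, 7.36 and 8.74 in normal retina against 5.45, 4.70 and 6.20 in PVR. The PVR samples all lay below the normal samples. The estimated log2 fold change was -0.59 (standard error 0.14, adjusted p = 0.0856 from edgeR and 0.00676 from DESeq2). It stayed between -0.71 and -0.46 over the 15 alternative tests, and apart from DESeq2 it passed the threshold only without PVR replicate 3 (adjusted p = 0.0499 from edgeR).

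SFRP2, a relative of SFRP1, had the highest mean level of the antagonists in both groups, though in PVR its range overlapped that of DKK3. Its difference depended on normal replicate 3. Its FPKM was 168, 213 and 547 in normal retina against 164, 183 and 133 in PVR. Normal replicate 1 lay within the range of PVR, and normal replicate 3 was 2.88-fold above the mean CPM of the other normal samples. The log2 fold change was -1.01 (standard error 0.40, adjusted p = 0.212 from edgeR), and without normal replicate 3 it was -0.33 (adjusted p = 0.276 from edgeR). Normal replicate 3 was also the sample with the highest oligodendrocyte sum, and the part of those cells in SFRP2 was not tested.

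DKK3, a member of the Dickkopf family whose effect on Wnt signals varies by cell, had a mean FPKM of 116 ± 12.5 (SD, n = 3) in normal retina and 130 ± 25.9 (SD, n = 3) in PVR. FRZB, a relative of the SFRPs, had 105 ± 5.38 (SD, n = 3) and 113 ± 11.3 (SD, n = 3), with a log2 fold change of 0.03 and a 95% confidence interval of -0.21 to 0.27. WIF1, which binds Wnts directly, had 71.2, 71.2 and 69.3 FPKM in normal retina against 70.6, 90.9 and 46.7 in PVR. The PVR samples of WIF1 thus lay on both sides of a tight normal group, with SDs of 22.1 in PVR and 1.11 in normal retina. DKK2 and SFRP5, at a mean FPKM of 3.93 to 4.96, had intervals of -0.47 to 0.25 and -0.64 to 0.19 on the log2 scale. SFRP4 had 10 to 17 counts in every sample, and DKK1 and DKK4 had at most 14 and were not tested. DKK1, a classical inhibitor of LRP5 and LRP6, had at most 2 counts in any sample.

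None of the 4 feedback and effector genes passed the edgeR test, none had an unadjusted p under 0.05, and DESeq2 called none. AXIN2, a scaffold of beta-catenin breakdown and a widely used readout of beta-catenin signals, had an FPKM of 5.83, 5.80 and 5.53 in normal retina against 7.20, 7.11 and 6.07 in PVR. On the FPKM scale the PVR samples all exceeded the normal samples, but after TMM scaling the groups overlapped. On the log2 scale the difference was 0.18 (standard error 0.10, 95% confidence interval -0.06 to 0.41, adjusted p = 0.355 from edgeR), so a rise of more than 1.33-fold lies outside the interval. ZNRF3, a ligase that removes Frizzled from the cell surface, had a mean FPKM of 2.69 ± 0.339 (SD, n = 3) in normal retina and 2.94 ± 0.0579 (SD, n = 3) in PVR. RNF43, the related ligase, and LEF1, a nuclear partner of beta-catenin, were scarce, with 29 to 114 and 30 to 91 counts. Their intervals of -1.37 to 1.12 and -1.19 to 0.68 on the log2 scale were wide, and a change to 0.388 or 2.18 times the normal level of RNF43 lies at their ends.

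**Figure D5:**
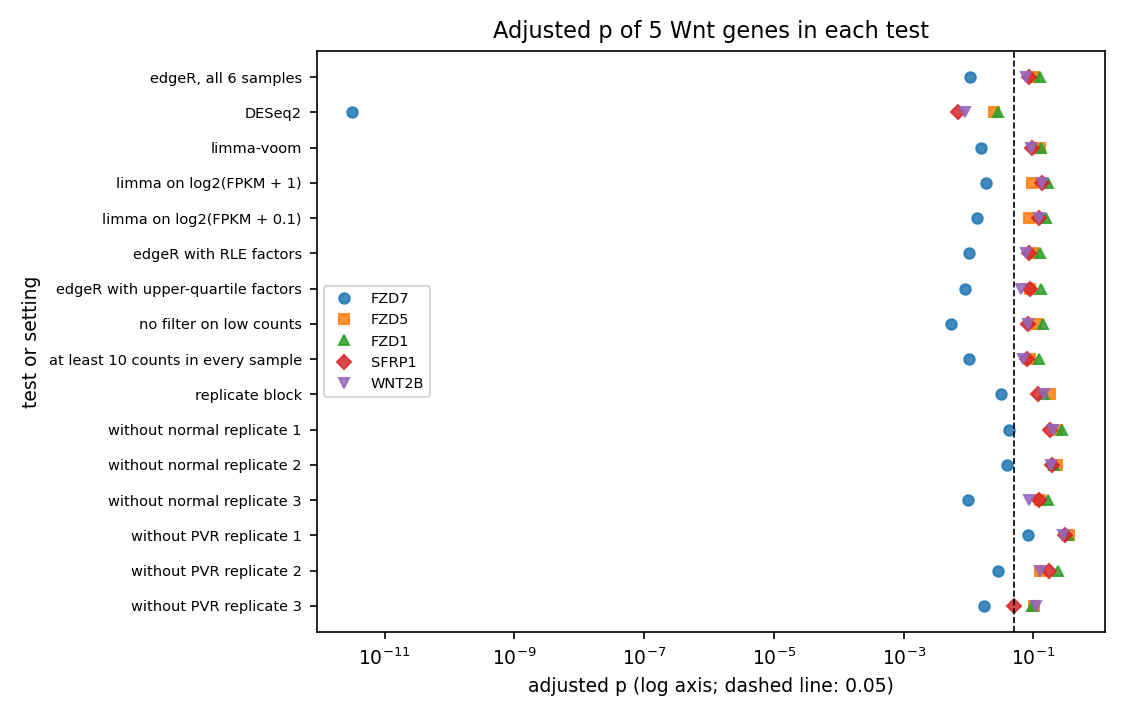
Adjusted p (x axis, log scale, dashed line at 0.05) of FZD7, FZD5, FZD1, SFRP1 and WNT2B in the edgeR test on all samples and in each of 15 alternative tests (y axis). FZD7 is left of the line in every test but the one without PVR replicate 1, and the other genes are left of it with DESeq2 and, for SFRP1, without PVR replicate 3.

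Further genes of the pathway were taken from a list of 75 symbols, of which 71 were in the files and 63 were tested. None passed the edgeR test, 8 of 63 had an unadjusted p under 0.05 (12.7%, against 21.2% of all genes tested), and DESeq2 called 4 of 65 (6.15%, against 8.75%). Their median log2 fold change was -0.08, and the groups did not overlap for 19 of the 63 (30.2%), against 28% of all genes tested. CTNNB1, which encodes beta-catenin, had a mean FPKM of 158 ± 14.6 (SD, n = 3) in normal retina and 154 ± 9.75 (SD, n = 3) in PVR, and a difference of -0.10 on the log2 scale. LGR4, an R-spondin receptor and the most abundant receptor gene of the list, had 30.1 to 33.5 FPKM in normal retina and 34.4 to 38.3 in PVR. Its edgeR log2 fold change was 0.09, and after TMM scaling the groups overlapped. PORCN, which attaches the lipid to Wnt proteins, had an FPKM of 13.8, 13.4 and 13.5 in normal retina against 11.4, 9.99 and 11.9 in PVR. PORCN was lower in each PVR sample than in each normal sample, and its log2 fold change was -0.36 (adjusted p = 0.136 from edgeR). TNIK, BAMBI and DAAM1, the most abundant of the nuclear, responsive and planar polarity genes, had log2 fold changes of 0.03, 0.22 and -0.17.

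The 4 genes called by DESeq2 were GSK3A, AMER1, CELSR1 and CELSR2. GSK3A, a kinase that marks beta-catenin for breakdown, had an FPKM of 54.3, 50.3 and 55.8 in normal retina against 45.4, 42.6 and 45.1 in PVR. Its log2 fold change was -0.34 (adjusted p = 0.0641 from edgeR and 0.0153 from DESeq2). AMER1, a membrane partner of APC, had an FPKM of 2.11, 2.48 and 2.88 in normal retina against 6.07, 9.36 and 3.26 in PVR, and its difference on the log2 scale was 1.25 (adjusted p = 0.106 from edgeR and 0.000587 from DESeq2). The PVR samples of AMER1 were all above the normal samples but far apart, and replicate 3 was the lowest. The planar polarity cadherins CELSR1 and CELSR2 went in opposite directions, with log2 fold changes of 0.70 and -0.37 and adjusted p of 0.0744 and 0.0972 from edgeR.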

How the data were processed

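Reads of 3 normal and 3 PVR samples, grouped by their titles, were aligned by the authors to OryCun2.0 with HISAT2 and counted per gene with htseq-count, and the deposited raw counts were not normalized. The deposited FPKM values, per the file headers 1 column per sample, divide the same counts by gene length and total count. The labels and the paper name different library kits, and the strand setting is not given in the sources used here. The analysis of counts used R 4.3.3 and edgeR 4.0.16 (default filter on low counts, TMM factors, quasi-likelihood test, Benjamini-Hochberg adjustment over the 18697 genes tested). Standard errors are the log2 fold change divided by the square root of F, and 95% intervals use the t distribution. The Wnt genes were selected by a rule on symbols, but that rule, the pathway list and the marker lists were chosen with earlier results of these data known. Wnt genes past an adjusted p of 0.05, in edgeR or an alternative on all samples, are given by sample. ROR2, WNT7A, RSPO1, SFRP2 and the other genes given by sample were chosen after their values were seen. Alternatives were DESeq2 1.42.0, limma-voom and limma on log2(FPKM + 1) and log2(FPKM + 0.1) (limma 3.58.1), RLE and upper-quartile factors, no filter, at least 10 counts in every sample, a replicate block, and tests leaving out 1 sample at a time. DESeq2 adjusted p left as NA stayed NA. Tests were tested on simulated data. Replicates differed by more than counting noise (chi-square per degree of freedom 19.6 to 185). Figures used matplotlib 3.10.9.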

Additional observations from a re-analysis of the deposited data

How the results depend on the processing

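FZD7 kept its direction in all 15 alternatives and its side of the threshold in 14. The number of Wnt genes called was 1 in all alternatives but DESeq2, with 5, and the tests leaving out 1 sample, which gave 0 to 2 (ROR2 added without normal replicate 3, SFRP1 without PVR replicate 3). For the other pathway genes it was 0 except with DESeq2, with 4, and with a sample left out, with 0 to 2. Over all genes it was 318, but 1755 with DESeq2, 92 with the replicate block, and 22 to 650 with a sample left out, lowest without PVR replicate 1 and highest without PVR replicate 3. The samples share only a number: same-numbered samples had correlations of deviations from their group means of -0.0129, 0.0734 and 0.0417, and the replicate block left 1 Wnt gene called, FZD7 (adjusted p = 0.0311 from edgeR).

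Of 563 log2 fold changes of single Wnt genes under alternatives, 42 had the opposite sign, in 17 genes with no call. With a sample left out the values ran from -0.20 to 0.0069 for DKK2, -0.054 to 0.25 for DKK3, -0.055 to 0.11 for FRZB, -0.011 to 0.37 for FZD2, -0.14 to 0.043 for FZD3, -0.13 to 0.13 for FZD6, -1.55 to 0.49 for FZD9, -0.54 to 0.019 for LEF1, -0.021 to 0.25 for LRP6, -0.48 to 0.48 for RNF43, -0.19 to 0.14 for SFRP4, -0.33 to 0.11 for WIF1, -0.22 to 0.044 for WNT3, -0.17 to 0.49 for WNT4, -0.91 to 0.25 for WNT5B, -4.95 to 3.29 for WNT7A and -0.012 to 0.15 for ZNRF3. With limma on log2(FPKM + 1) and log2(FPKM + 0.1), FZD3 was 0.022 and 0.024 and SFRP4 was 0.0084 and 0.047, and RNF43 was 0.036 with the second. With limma-voom, RNF43 was 0.073, SFRP4 0.018 and WNT7A 0.70. With the replicate block, RNF43 was 0.022 and SFRP4 0.0097, and SFRP4 was 0.017 with upper-quartile factors. The cause was not tested. Depth limits the scarce genes: SFRP4, with 10 to 17 counts, had an interval of -1.14 to 1.12.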

Other observations

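The genes of this section were chosen after their values were seen. Norrin, encoded by NDP, signals through FZD4, LRP5 and TSPAN12 in retinal vessels. NDP had an FPKM of 2.91, 3.85 and 4.64 in normal retina against 3.34, 3.78 and 3.34 in PVR, all within the normal range. TSPAN12 had 0.184, 0.678 and 0.810 in normal retina against 0.225, 0.201 and 0.333 in PVR, so normal replicate 1 lay below all PVR samples and the other normal samples above them. Its log2 fold change was -1.20 (adjusted p = 0.274 from edgeR). Among the 11 endothelial markers, CDH5 and EMCN were at 0 counts in PVR replicates 1 and 2, and ERG in PVR replicates 1 and 3. However, the endothelial sum was 714 to 746 CPM in PVR against 608 to 644 CPM in normal retina. A positive log2 fold change was found for 3 of these markers and a negative one for 8.

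WLS, which carries Wnt proteins to the cell surface, was a further gene that stood out in normal replicate 2, with an FPKM of 6.60 against 0.635 and 0.836 in the other normal samples and 1.18 to 1.79 in PVR. The PVR samples all lay above normal replicates 1 and 3, as they did for WNT7A and for the lens list.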
